A study of Mus musculus with 22 samples.

Results

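The subject here is how the effect of inhaled ovalbumin on the lungs of sensitized mice differed between a long and a short challenge protocol. For each gene the difference of differences was taken on log2(FPKM + 0.5): long OVA minus long PBS, minus short OVA minus short PBS. A negative value means that the OVA effect was lower after the long protocol, and a positive value that it was higher. The value was estimated for 15682 of 20938 genes, those with an FPKM (fragments per kilobase of transcript, scaled to library size) of at least 0.1 in at least 3 libraries. It uses 14 of the 22 libraries of the series, 4 long OVA, 3 long PBS, 4 short OVA and 3 short PBS, each labelled as 1 biological replicate.

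All animals were BALB/c mice without an engineered allele, and the tissue was lung, a mixture of many cell types, so that more cells of a type and more RNA per cell cannot be told apart. By the treatment text all groups were sensitized by intraperitoneal injection at an age of 49 days, received a booster at 63 days, and were 70 days old when the aerosols began. Long OVA and long PBS mice inhaled ovalbumin (OVA, the egg-white protein used as an allergen) or phosphate-buffered saline (PBS) 3 times a week for 4 weeks. Short OVA and short PBS mice inhaled OVA or PBS on 3 consecutive days. Number of challenges, time since the first one and age therefore differ together between the protocols and cannot be told apart. The sample titles call the PBS animals normal although the treatment text has them sensitized, and the agent used for sensitization is not named in the labels. The series design names trachea where the samples are labelled lung. The alveolar surfactant gene Sftpb averaged 1630 FPKM in long OVA, 1760 in long PBS, 959 in short OVA and 1820 in short PBS lungs (sums over its transcripts).

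In allergic airway inflammation, type 2 helper T cells and innate lymphoid cells secrete IL-4, IL-5 and IL-13. IL-5 sustains eosinophils, while IL-4 and IL-13 act through the transcription factor STAT6 on macrophages and airway epithelium, where they raise chitinase-like proteins, resistin-like molecules, eotaxins and mucins. B cells that receive such help become plasma cells, whose IgA and IgM polymers carry the joining chain.

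Promoters of the genes with the most negative differences (Retnla, Rnase2a and Chil4), of the cytokine gene Il13, and of the genes with the most positive ones (Jchain and Hspa1b) are shown because the results turn on them. Each runs from 250 bases before to 50 bases after the annotated start, 5′ to 3′ on the gene's strand, from RefSeq on GRCm38.p6. Retnla lies on the plus strand (chr16:48842359-48842658), and the others on the minus strand: Rnase2a (chr14:51256063-51256362), Chil4 (chr3:106219430-106219729), Il13 (chr11:53634653-53634952), Jchain (chr5:88527848-88528147) and Hspa1b (chr17:34959189-34959488). Capitals mark matches to any of 5 motifs.
Retnla: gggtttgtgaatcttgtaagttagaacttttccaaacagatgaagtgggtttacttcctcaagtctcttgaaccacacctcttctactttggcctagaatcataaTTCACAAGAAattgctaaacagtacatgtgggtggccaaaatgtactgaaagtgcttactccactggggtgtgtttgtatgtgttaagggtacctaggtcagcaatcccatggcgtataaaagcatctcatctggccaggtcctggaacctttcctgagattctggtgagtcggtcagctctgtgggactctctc
Rnase2a: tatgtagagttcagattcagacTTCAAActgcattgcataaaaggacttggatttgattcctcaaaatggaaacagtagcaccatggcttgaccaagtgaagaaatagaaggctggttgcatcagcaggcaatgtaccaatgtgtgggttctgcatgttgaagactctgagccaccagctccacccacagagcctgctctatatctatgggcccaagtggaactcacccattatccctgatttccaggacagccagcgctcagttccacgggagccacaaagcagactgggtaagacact
Chil4: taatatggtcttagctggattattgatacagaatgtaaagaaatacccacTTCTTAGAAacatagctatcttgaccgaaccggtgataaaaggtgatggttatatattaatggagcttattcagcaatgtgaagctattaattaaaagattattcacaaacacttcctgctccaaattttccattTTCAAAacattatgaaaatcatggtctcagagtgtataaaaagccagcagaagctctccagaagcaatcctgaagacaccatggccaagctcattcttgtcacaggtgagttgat
Il13: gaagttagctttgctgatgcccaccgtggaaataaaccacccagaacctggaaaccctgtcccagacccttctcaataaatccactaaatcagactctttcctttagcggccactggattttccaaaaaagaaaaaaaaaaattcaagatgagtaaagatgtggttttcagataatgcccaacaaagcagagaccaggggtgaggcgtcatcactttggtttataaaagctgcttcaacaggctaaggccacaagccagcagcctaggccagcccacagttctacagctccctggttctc
Jchain: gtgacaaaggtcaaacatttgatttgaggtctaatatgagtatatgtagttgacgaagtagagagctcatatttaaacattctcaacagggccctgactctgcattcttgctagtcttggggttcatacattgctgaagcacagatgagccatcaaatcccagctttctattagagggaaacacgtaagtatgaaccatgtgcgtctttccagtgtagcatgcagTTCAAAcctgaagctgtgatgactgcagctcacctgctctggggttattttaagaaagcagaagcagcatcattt
Hspa1b: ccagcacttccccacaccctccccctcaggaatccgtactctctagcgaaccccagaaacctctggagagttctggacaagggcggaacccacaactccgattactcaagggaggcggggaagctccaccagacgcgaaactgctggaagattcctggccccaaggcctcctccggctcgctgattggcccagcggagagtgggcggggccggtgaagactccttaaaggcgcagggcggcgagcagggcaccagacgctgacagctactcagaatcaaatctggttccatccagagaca

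The motifs, searched on both strands, were TTCNNNNGAA (the spacing bound by STAT6), TTCNNNGAA (the spacing of other STAT proteins), CACGTG (the E-box of the clock proteins), GAANNTTCNNGAA (a heat shock element) and TTTGAA (the core of the cell cycle homology region). The capitals in Retnla are a STAT6-type site, those in Rnase2a and Jchain a cell cycle homology core, and those in Chil4 one site with the other STAT spacing and one cell cycle homology core. No letters matched in Il13 or Hspa1b within this window. The STAT6-type site was found in 16 of the 176 promoters matched to genes called with a negative difference (9.1%), in 1 of 60 matched to positive ones (1.7%) and in 6.99% of 27025 promoters. The cell cycle homology core was in 22.7% of the negative, 5% of the positive and 18.11% of all promoters. In the same order the E-box was in 9.1%, 11.7% and 7.24%. The other STAT spacing was in 10.8%, 6.7% and 8.47%, and the heat shock element in 0.6%, 0% and 0.53%. These are descriptions of letters, without a test.

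The OVA effect differed between the protocols for 295 genes, 1.88% of those tested (limma on all 22 libraries, Benjamini-Hochberg adjusted p under 0.05, two-sided, here "called"). The difference was negative for 223 genes (1.42% of those tested) and positive for 72 (0.459%). The OVA effects of the single protocols share libraries with the difference that chose these genes, so the next counts are a description. All 223 negative genes were higher in short OVA than in short PBS lungs by the same test, against a background of 12.4% of all genes. Of these, 34 were also called higher in long OVA than in long PBS lungs, against 1.03% of all genes, and 189 were not called there. The median OVA effect over the 223 genes was 0.17 in the long and 1.74 in the short protocol (log2). No gene in this set had the larger effect in the long protocol. Of the 72 positive genes, 65 were called lower in short OVA than in short PBS (background 11.7%), with medians of 0.02 in the long and -1.1 in the short protocol. Flvcr2, a membrane transporter, was 1 of 6 positive genes called in the long protocol, the single one lower there (0.153% of all genes were). It was lower in the short protocol too. Its difference (0.76 ± 0.16, adjusted p = 0.0175) lost the call in 4 of the 14 fits that each left out 1 library. These were the fits without long PBS libraries 2 (0.06) and 3 (0.0541) and short PBS libraries 1 (0.052) and 3 (0.0587). It was also lost with the length trend removed (0.0648) and on transcript sums (0.0908). Long and short OVA lungs themselves differed by call in 221 of the 223 and 56 of the 72 genes, against 27.7% of all genes.

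The count depends on which libraries estimate the spread. The fit includes the 8 methacholine libraries of the series, of which 4 had low array weights (0.066 to 0.212). In a fit of the 14 OVA and PBS libraries alone 4513 genes were called, 28.8% of those tested, 2397 positive (15.3%) and 2116 negative (13.5%). All 295 genes were among them. The deposited gene FPKM also carry a constant of each gene that is the same in all libraries (transcript over gene FPKM ran from -4.77 to 4.58 on the log2 scale over 5605 genes with 1 transcript). Levels printed here can therefore be compared between libraries but not between genes, and the 0.1 FPKM filter and the added 0.5 act unequally on genes. With sums of transcript FPKM 293 genes were called, 267 of the 295 among them. Values also followed transcript length. The median difference was -0.26 in the fifth of genes that have the shortest transcripts, against 0.35 where transcripts were longest. Calls were 11 positive and 89 negative in the first of these, against 20 and 10 in the last. Removing each library's length trend gave 83 positive and 243 negative calls, 235 of the 295 genes among them, and 2749 calls in the 14 libraries alone (17.5% of those tested, 7.35% positive and 10.2% negative), 293 of the 295 among them. Counts for gene lists below are therefore given for all libraries and for the 14 alone with the trend removed, to be read against 1.88% and 17.5%. Fragments behind the values are few for genes near the 0.1 FPKM filter. An FPKM of 1 by transcript corresponded to 17.2 to 25.2 fragments per kilobase in these libraries, as read from the smallest steps of the values. The genes nearest the threshold of adjusted p were Ffar2, Txnip and Tubb6 inside it (adjusted p = 0.0496, 0.0496 and 0.05 in limma) and Plekho2, C1qc and Col24a1 outside (0.0512, 0.0513 and 0.052).

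**Figure D1:**
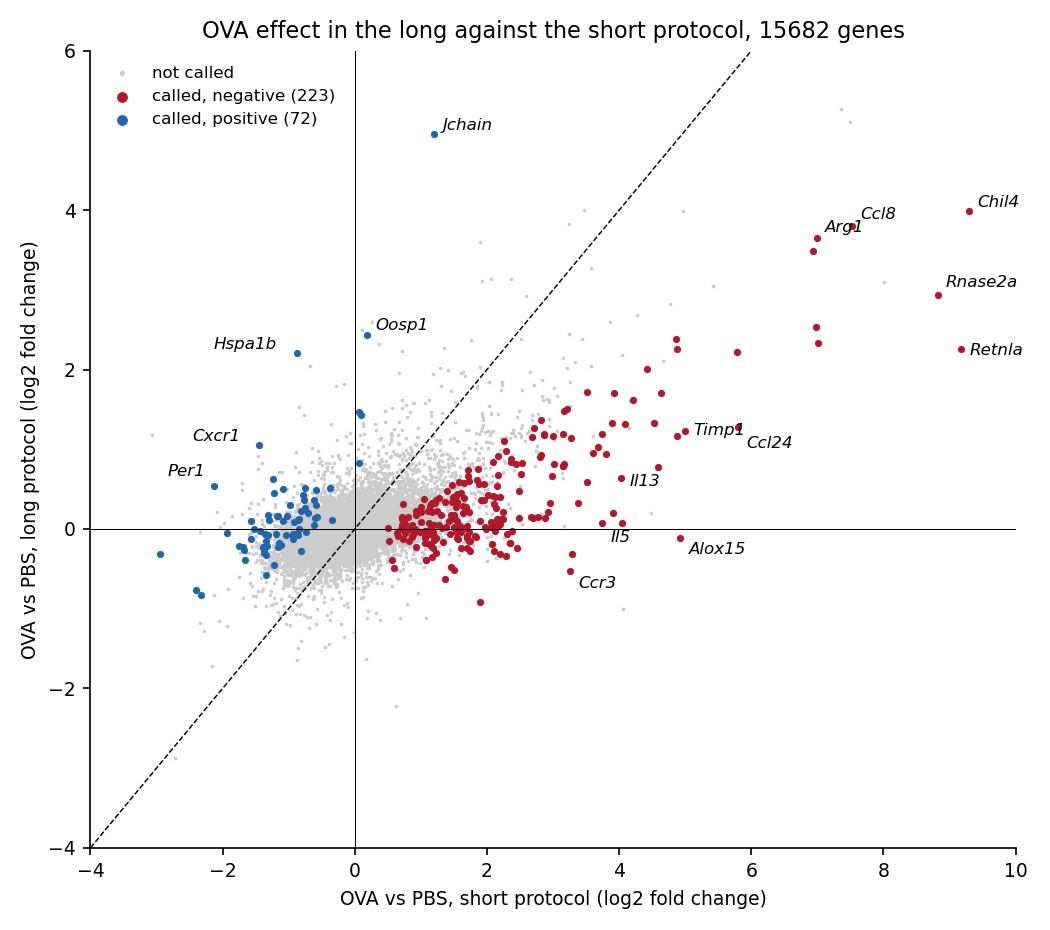
The OVA effect on each of 15682 genes in the long protocol (vertical axis) against the short protocol (horizontal axis), both as log2 fold changes, with the dashed line where the effects are equal. The 223 negative genes lie to the right of the line, with short effects up to 9.29 (Chil4), and among the 72 positive genes Jchain stands highest, at 4.95 in the long and 1.2 in the short protocol.

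The type 2 cytokine genes Il13, Il5 and Il4 stood high in short OVA lungs. They were far lower in long OVA lungs, where their ranges overlapped those of long PBS. Il13 (chromosome 11, 53631324 to 53634702, minus strand) was listed at 0.537, 0.051, 0.483 and 0.468 FPKM in long OVA, at 0.04, 0.122 and 0 in long PBS, at 10.7, 9.73, 4.42 and 7.38 in short OVA and at 0 in all 3 short PBS lungs. Every short OVA value lay above every long OVA value, while long OVA library b fell inside the long PBS range. The difference was -3.39 ± 0.32 (log2 ± SE, adjusted p = 6.22e-06 in limma), and, because short PBS is at 0, its size depends on the added 0.5. Il5, the eosinophil growth factor, was listed at 0.179, 0, 0.663 and 0.529 FPKM in long OVA, at 0.217, 0.405 and 0.178 in long PBS, at 9.95, 9.92, 5.37 and 7.67 in short OVA and at 0.131, 0.08 and 0.198 in short PBS. Its long groups overlapped and its short groups did not (difference -3.67 ± 0.34, adjusted p = 5.16e-06). Il4, which drives type 2 helper cells and the switch to IgE, had a difference of -2.63 ± 0.34 (adjusted p = 1.67e-04; -4.02 to -1.98 over the alternatives), with 0 to 0.415 FPKM in long OVA, 0 to 0.055 in long PBS, 2.18 to 6.13 in short OVA lungs and 0 to 0.059 in short PBS.

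Of the 17 type 2 cytokine, receptor and alarmin genes tested, 7 were called, all negative (10 in the 14 libraries alone with the length trend removed, all negative), and their median difference was -0.91, against 0.04 over all genes. The other 4 called members were Il10, Il13ra2 (the decoy receptor of IL-13), Il1rl1 (the receptor of IL-33) and Il21. Il10, an inhibitory cytokine, was among those whose effect remained called in the long protocol: 1.35, 0.47, 0.434 and 0.957 FPKM in long OVA, 0, 0 and 0.159 in long PBS, 2.88 to 6.50 in short OVA lungs and 0 to 0.161 in short PBS. The long OVA values lay above all PBS values and below all short OVA values. Il21, a cytokine of follicular helper T cells, was called in both protocols too, by 1.36 ± 0.20 (adjusted p = 6.77e-04) in the long and 2.81 ± 0.20 in the short (7.09e-09). With a pseudocount of 0.1 the differences of Il10 and Il21 were not called (adjusted p = 0.115 and 0.204). The call of Il1rl1 (-1.48 ± 0.31, adjusted p = 0.0152) was lost on leaving out long PBS library 1 (0.0669) or short PBS library 1 (0.0576). Il10, Il21, Il1rl1 and the other genes outside the naming rule were picked after their values were seen.

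The alarmin Il33, released by epithelial cells, was high in the OVA lungs of both protocols. It was listed at 308.1, 245.6, 238.5 and 238.2 FPKM in long OVA, at 72.8, 81.1 and 65.7 in long PBS, at 462.9, 499.2, 384.7 and 345.9 in short OVA and at 63.2, 66.5 and 61.0 in short PBS. OVA and PBS lungs did not overlap in either protocol, and every short OVA value lay above every long OVA value. The effect was 1.80 ± 0.17 in the long and 2.71 ± 0.17 in the short protocol, and the difference of -0.91 ± 0.24 was not called with all libraries (adjusted p = 0.0639) but was with the 14 alone (0.00273).

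Of 16 chemokine and chemokine receptor genes of eosinophil and monocyte recruitment, 8 were called, all negative (13 in the 14 libraries alone with the trend removed, all negative), with a median difference of -2.45. OVA lungs were called higher than PBS lungs for 6 of the 16 in the long protocol, against 1.03% of all genes. In the short one 15 were called higher and 1 lower, against 12.4% and 11.7% of all genes. Ccl24, an eotaxin made by macrophages (chromosome 5, 135569937 to 135573049, minus strand), was listed at 4.84, 2.19, 2.40 and 3.97 FPKM in long OVA, at 1.72, 0.775 and 0.753 in long PBS, at 95.7, 69.8, 45.6 and 57.3 in short OVA and at 0.548, 1.21 and 0.4 in short PBS. The long groups did not overlap, but their effect of 1.28 ± 0.36 was not called (adjusted p = 0.104), and the difference between the protocols was -4.52 ± 0.50 (adjusted p = 3.41e-05). Ccl7, a monocyte attractant, was listed at 8.88 to 15.9 FPKM in long OVA, at 1.46 to 1.93 in long PBS, at 118.1 to 162.3 in short OVA lungs and at 0.527 to 0.816 in short PBS (difference -4.45 ± 0.64, adjusted p = 5.11e-04).

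Ccl8, a ligand of CCR8 in mice (chromosome 11, 82115185 to 82116799, plus strand), was called higher in OVA lungs in both protocols. It was listed at 65.8, 28.6, 29.9 and 43.5 FPKM in long OVA, at 2.83, 2.74 and 1.68 in long PBS, at 304.9, 183.7, 138.9 and 193.7 in short OVA and at 0.602, 0.968 and 0.274 in short PBS. The effects were 3.81 ± 0.37 in the long and 7.52 ± 0.37 in the short protocol and both were called, with a difference of -3.71 ± 0.52 (adjusted p = 4.24e-04). The eotaxin Ccl11 had effects of 3.05 in the long and 5.42 in the short protocol, but its difference of -2.38 ± 0.79 was not called with all libraries (adjusted p = 0.146; 0.00121 in the 14 alone). The receptor Ccr2, carried by inflammatory monocytes, had overlapping long groups, 11.8 to 15.4 FPKM in long OVA and 11.04 to 14.8 in long PBS, while short OVA lungs had 29.1 to 35.6 and short PBS lungs 7.76 to 9.11 (difference -1.78 ± 0.23, adjusted p = 1.67e-04).

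**Figure D2:**
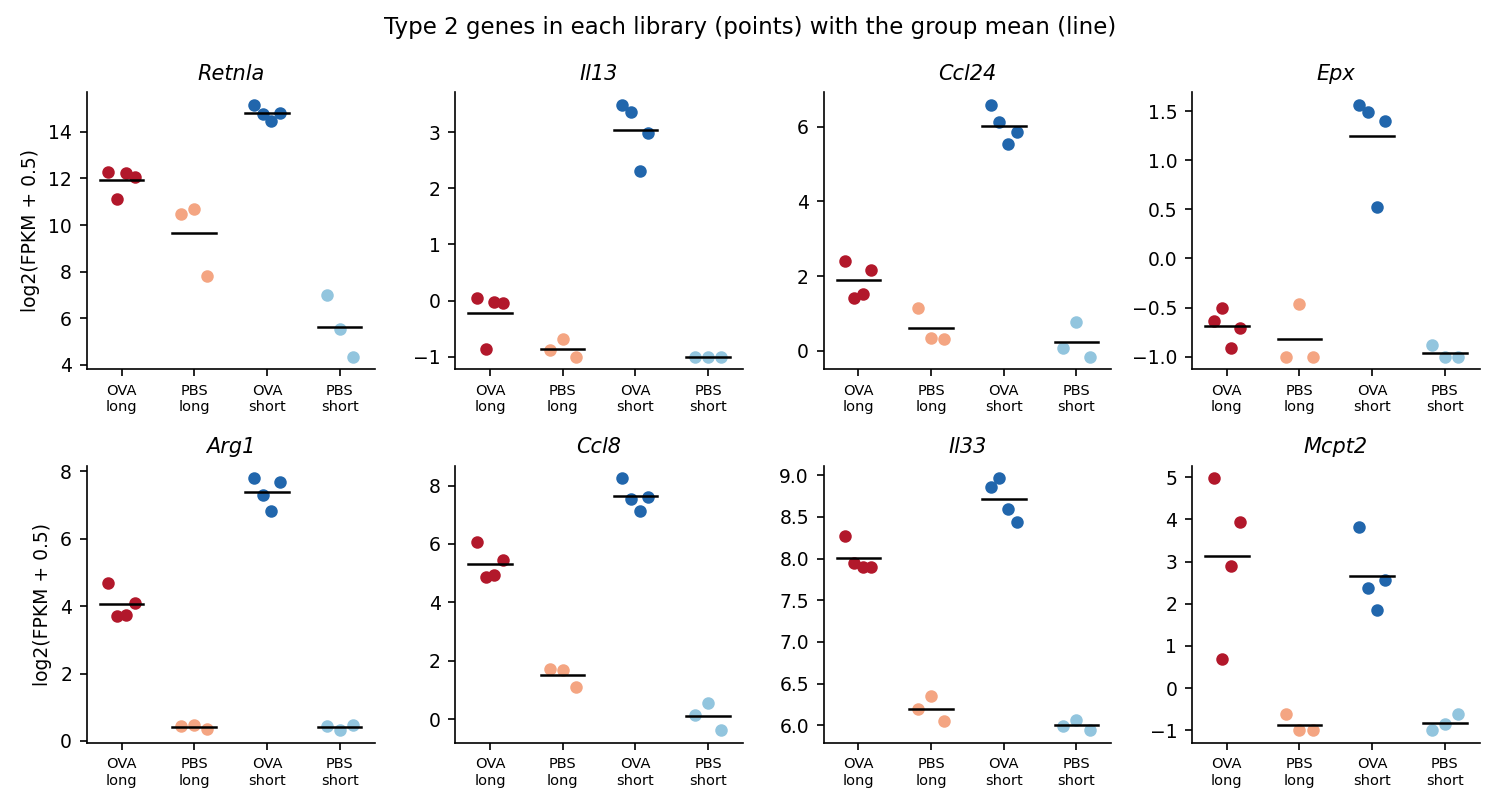
Each point is 1 library on a log2(FPKM + 0.5) axis that differs between panels, grouped as long OVA, long PBS, short OVA and short PBS, with the group mean as a line. In the panels for Il13, Ccl24 and Epx the long OVA libraries lie near the PBS libraries (Ccl24 2.19 to 4.84 FPKM in long OVA and 0.753 to 1.72 in long PBS), Arg1, Ccl8 and Il33 take a middle level, and the OVA groups overlap in the panel for Mcpt2.

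Genes that IL-13 and IL-4 are known to raise in macrophages and epithelium held several of the most negative differences. Of 23 tested, 16 were called, all negative (18 in the 14 libraries alone with the trend removed), with a median of -2.14. Retnla, a resistin-like secreted protein (chromosome 16, 48842551 to 48844461, plus strand), was listed at 4965, 2193, 4816 and 4294 FPKM in long OVA, at 1430, 1647 and 224.4 in long PBS, at 36918, 28306, 22787 and 28592 in short OVA and at 128, 46.5 and 19.9 in short PBS. The 4 groups did not overlap at all. The difference between effects, -6.91 ± 0.94 (adjusted p = 3.18e-04), had its larger share in the PBS lungs, where long minus short was 4.02 (adjusted p = 0.0283), against -2.89 in the OVA lungs. Rnase2a, one of the eosinophil-associated ribonucleases, had the same order, with 37.9, 18.7, 35.2 and 31.9 FPKM in long OVA, 8.72, 5.66 and 0.612 in long PBS, 354.6, 320.1, 192.8 and 267.4 in short OVA and 0.059, 0.228 and 0.066 in short PBS (difference -5.89 ± 0.67, adjusted p = 3.68e-05; PBS long minus short 2.7, adjusted p = 0.029).

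Arg1, the arginase of alternatively activated macrophages, differed between the protocols in OVA lungs. It was listed at 25.4, 12.7, 12.9 and 16.6 FPKM in long OVA, at 0.862, 0.877 and 0.776 in long PBS, at 222.9, 158.5, 112.4 and 205.3 in short OVA and at 0.855, 0.746 and 0.895 in short PBS. The PBS groups overlapped and each OVA group stood apart (difference -3.35 ± 0.56, adjusted p = 0.00265, and 0.0855 with a pseudocount of 0.1). Cd209e, a C-type lectin related to DC-SIGN, had effects of 2.34 in the long and 7.01 in the short protocol (difference -4.67 ± 0.49, adjusted p = 2.08e-05). Mgl2, a lectin of alternatively activated macrophages and dendritic cells, had none that was called in the long protocol: 7.73 to 11.3 FPKM in long OVA and 4.08 to 10.9 in long PBS, against 43.2 to 56.3 in short OVA lungs and 3.57 to 5.70 in short PBS (difference -3.05 ± 0.33, adjusted p = 2.75e-05). The chitinase-like genes Chil3 and Chil4 are near-identical copies, so their split of reads is uncertain. Chil3 was called in both protocols (2.26 and 4.88, difference -2.62 ± 0.51, adjusted p = 0.009). Chil4 was called as well (-5.30 ± 1.24, adjusted p = 0.0296), but lost the call in 7 of the 14 leave-outs (highest adjusted p = 0.101, without long PBS library 2). Alox15, a lipoxygenase, lost its call in 10 of them (main -5.04 ± 1.21, adjusted p = 0.0338; highest 0.139, without short PBS library 3).

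Of 13 eosinophil genes tested, 6 were called, all negative (7 negative and 1 positive in the 14 libraries alone with the trend removed), with a median of -1.79. In the short protocol 10 of the 13 were called higher in OVA than in PBS lungs and 1 lower, against 12.4% and 11.7% of all genes. In the long protocol 2 were called higher, Rnase2a among them (2.93), against 1.03% of all genes. Rnase2a, Alox15 and Ear2 also count in the IL-13 list above, and Ccr3 in the chemokine list. Epx, eosinophil peroxidase and the most specific of them, was listed at 0.141, 0.203, 0.031 and 0.113 FPKM in long OVA, at 0, 0.225 and 0 in long PBS, at 2.46, 2.32, 0.943 and 2.14 in short OVA and at 0.042, 0 and 0 in short PBS. Long OVA overlapped long PBS, and only short OVA stood apart (difference -2.08 ± 0.29, adjusted p = 3.82e-04; -3.60 to -1.45 over the alternatives). The eotaxin receptor Ccr3 was listed at 0.477 to 1.06 FPKM in long OVA, at 0.839 to 1.58 in long PBS, at 3.90 to 8.74 in short OVA lungs and at 0.093 to 0.361 in short PBS (difference -3.79 ± 0.54, adjusted p = 4.44e-04). Cebpe, a transcription factor of maturing granulocytes, differed by -1.79 ± 0.20 (adjusted p = 3.68e-05), or by -3.30 on transcript sums and -3.64 with a pseudocount of 0.1. Ear2 and Rnase2a belong to a family of near-identical genes, so reads may be split among its members.

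Mucus genes gave 1 call, and 1 long OVA library stood apart in them. Of 22 goblet cell genes, 1 was called (3 in the 14 alone with the trend removed, all negative), Slc26a4 (pendrin, an anion exchanger induced by IL-13), with 33.3 to 77.2 FPKM in long OVA, 1.22 to 8.84 in long PBS, 77.4 to 126.5 in short OVA lungs and 0.143 to 0.624 in short PBS (difference -3.44 ± 0.78, adjusted p = 0.024). Its OVA groups differed by -0.90 and its PBS groups by 2.54, and the call was lost in 7 of the 14 leave-outs (highest adjusted p = 0.101, without long PBS library 2). Clca1, a goblet cell secretory protein, was listed at 565.3, 48.9, 609.4 and 615.0 FPKM in long OVA, at 67.3, 73.3 and 9.83 in long PBS, at 732.8, 219.8, 1081 and 633.8 in short OVA and at 7.85, 1.44 and 0.205 in short PBS. Long OVA library b lay within the long PBS range for Clca1 and below it for the gel-forming mucin Muc5ac (0.242 FPKM, against 2.73 to 7.96 in the other 3 long OVA and 0.418 to 1.55 in long PBS). The differences of -4.90 ± 1.97 and -2.44 ± 0.90 were not called with all libraries (adjusted p = 0.243 and 0.2). In the 14 alone Clca1 was (0.0238, and 0.0331 with the trend removed) and Muc5ac was not (0.0837 and 0.0629). Long minus short for Clca1 was -0.85 in OVA and 4.05 in PBS lungs. The same library was lowest of the long OVA lungs for Chil4, Il13 and Mcpt2.

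All 30 cell cycle genes tested were called higher in short OVA than in short PBS lungs, against 12.4% of all genes. In long OVA against long PBS 0 were called, but only 1.18% of all genes were, so this 0 is near the background. All 30 had a negative difference, against 7161 of all 15682 genes, and 8 were called (29 in the 14 libraries alone with the trend removed), with a median of -1.48. Cdk1, the mitotic kinase, was listed at 4.49, 1.54, 3.80 and 3.68 FPKM in long OVA, at 3.83, 3.04 and 1.85 in long PBS, at 22.2, 14.4, 15.5 and 16.4 in short OVA and at 1.92, 3.21 and 1.33 in short PBS. The other 3 groups overlapped and short OVA stood above them (difference -2.62 ± 0.49, adjusted p = 0.00689). Rrm2, a subunit of ribonucleotide reductase, differed by -1.94 ± 0.35 (adjusted p = 0.00483) and Cdc20, an activator of the anaphase-promoting complex, by -1.67 ± 0.31 (0.00663). For Birc5 (survivin) the call of -1.21 ± 0.21 was lost with sums over transcripts (-2.30, adjusted p = 0.123) and with a pseudocount of 0.1 (-2.01, 0.0673).

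Inflammatory and remodelling genes held further negative differences. Of 21 acute phase, complement and innate cytokine genes 7 were called, all negative (10 in the 14 alone with the trend removed, all negative), among them Il6, listed at 0.078 to 0.142 FPKM in long OVA, 0 to 0.015 in long PBS, 1.39 to 2.12 in short OVA lungs and 0 to 0.013 in short PBS (difference -1.87 ± 0.16, adjusted p = 1.27e-06; -3.13 on transcript sums and -3.16 with a pseudocount of 0.1). Saa3, an acute phase protein of macrophages and epithelium, had effects of 1.71 and 4.64 (difference -2.93 ± 0.51, adjusted p = 0.00416). Complement component C1qb had effects of 1.19 and 2.86 (difference -1.66 ± 0.31, adjusted p = 0.00632). Among 30 matrix genes 3 were negative and 2 positive by call (9 and 2 in the 14 alone with the trend removed). Of the positive ones, Ccn2, a matricellular growth factor, differed by 1.21 ± 0.24 (adjusted p = 0.00998). Timp1, an inhibitor of matrix metalloproteinases, was listed at 1.88 to 4.33 FPKM in long OVA, 0.8 to 1.30 in long PBS, 31.7 to 44.2 in short OVA lungs and 0.527 to 0.838 in short PBS (difference -3.77 ± 0.54, adjusted p = 4.63e-04). Spp1 (osteopontin) differed by -1.89 ± 0.31 (adjusted p = 0.00221).

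The collagen gene Col3a1 was called as well, with 59.0, 44.2, 63.8 and 47.9 FPKM in long OVA, 66.1, 65.8 and 32.7 in long PBS, 120.7, 78.2, 70.0 and 93.3 in short OVA and 21.0, 21.7 and 20.05 in short PBS (difference -2.03 ± 0.41, adjusted p = 0.0108). The long groups overlapped, and long PBS lay above short PBS by 1.30, which was not called (adjusted p = 0.107). The smooth muscle actin gene Acta2 differed by -0.92 ± 0.19 (adjusted p = 0.0111), with long OVA at 145.6 to 166.1, long PBS at 98.2 to 125.5, short OVA at 192.0 to 260.5 and short PBS at 70.8 to 101.5 FPKM. Without long PBS library 2 its adjusted p was 0.0525. Of the 15 smooth muscle genes 2 were called, both negative (2 negative and 2 positive in the 14 alone with the trend removed), and 9 had a positive sign.

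Fgf23, a phosphate-regulating hormone made mainly by bone, was far higher in short OVA lungs than in the other groups. It was listed at 0.569, 0.077, 0.532 and 0.355 FPKM in long OVA, at 0 in all 3 long PBS, at 15.2, 15.2, 7.25 and 10.96 in short OVA and at 0, 0.016 and 0 in short PBS lungs. All OVA values of both protocols lay above all PBS values (difference -3.81 ± 0.30, adjusted p = 9.01e-07).

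Among the 72 positive genes, 5 were called higher in long OVA than in long PBS lungs (1.03% of all genes were) and not called in the short protocol: Jchain, Oosp1, Itih4, Cybb and Ly6c2. Jchain, the joining chain of secreted IgA and IgM (chromosome 5, 88519809 to 88527891, minus strand), was listed at 1768, 887.9, 652.8 and 1008 FPKM in long OVA, at 20.7, 46.6 and 34.2 in long PBS, at 98.4, 32.6, 100.6 and 27.1 in short OVA and at 15.8, 55.7 and 14.3 in short PBS. Every long OVA library lay far above the highest of the other libraries. The effects were 4.95 ± 0.54 in the long and 1.2 ± 0.54 in the short protocol, and the difference of 3.75 ± 0.76 was called (adjusted p = 0.0116) in all 14 leave-outs. Of the 21 B cell and plasma cell genes Jchain alone was called (2 in the 14 libraries alone with the trend removed), and the median was -0.20. Tnfrsf17, the plasma cell receptor BCMA, was listed at 0.832 to 1.67 FPKM in long OVA, 0.102 to 0.208 in long PBS, 0.072 to 0.327 in short OVA lungs and 0.06 to 0.098 in short PBS (difference 0.92 ± 0.26, adjusted p = 0.0721, and 0.011 in the 14 alone).

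Oosp1, an oocyte-secreted protein by name, was listed at 2.89, 2.52, 1.57 and 2.06 FPKM in long OVA and at 0 in all 3 long PBS, at 0.488, 0, 0 and 0 in short OVA and at 0, 0.068 and 0 in short PBS lungs (difference 2.26 ± 0.27, adjusted p = 8.27e-05; 1.58 to 4.14 over the alternatives). Itih4, an inter-alpha-trypsin inhibitor heavy chain, was listed at 30.3 to 43.4 FPKM in long OVA, 9.99 to 17.7 in long PBS, 12.2 to 17.9 in short OVA lungs and 13.6 to 15.8 in short PBS (difference 1.41 ± 0.28, adjusted p = 0.00998). Cybb, the catalytic subunit of the phagocyte NADPH oxidase, was listed at 44.5 to 52.7 FPKM in long OVA, 25.02 to 29.0 in long PBS, 19.0 to 25.2 in short OVA lungs and 20.2 to 23.5 in short PBS (difference 0.77 ± 0.16, adjusted p = 0.0144, and 0.119 with the length trend removed). In each of these 3 genes long OVA stood above all other libraries. The monocyte marker Ly6c2 had the same order (difference 1.34 ± 0.34, adjusted p = 0.0486), but lost the call in 13 of the 14 leave-outs (highest adjusted p = 0.124, without long PBS library 1). Its list went mostly the other way. Of 16 monocyte and recruited macrophage genes 1 was called positive and 3 negative, with a median of -1.19. In the 14 libraries alone with the trend removed these were 2 and 8. The negative ones, Ccr2, C1qb and C1qa, also count in the chemokine and complement lists above.

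The positive genes also held clock, glucocorticoid-responsive and heat shock genes. Per1, a clock gene that glucocorticoids also induce (chromosome 11, 69095217 to 69109960, plus strand), was listed at 17.5, 27.3, 13.7 and 16.2 FPKM in long OVA, at 21.0, 5.72 and 15.2 in long PBS, at 4.81, 7.41, 11.6 and 4.31 in short OVA and at 26.3, 33.2 and 32.0 in short PBS. The long groups overlapped and the short groups did not (difference 2.67 ± 0.54, adjusted p = 0.011). Of 19 clock genes, 3 had a called positive difference (Per1, Cry2 and Ciart) and 1 a negative one (Nfil3, a repressor that also acts in lymphocytes). In the 14 libraries alone with the trend removed these were 7 and 1. The median difference of the list was 1.18 with all 22 libraries. Cry2 and Ciart lost their calls in 10 and 12 of the 14 leave-outs, with highest adjusted p of 0.129 and 0.145, both without long PBS library 2. Nfil3 (-1.35 ± 0.30, adjusted p = 0.0197) lost it in 4: without long OVA library b (0.0501), long PBS libraries 1 (0.0654) and 2 (0.0859) and short OVA library 1 (0.0525).

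Of 20 glucocorticoid-responsive genes 6 were called, all positive (10 in the 14 libraries alone with the trend removed, all positive), with a median of 0.80. Per1 is 1 of the 6 and also counts in the clock list. In 5 of the 6 the PBS lungs differed more between the protocols than the OVA lungs did, and the list's median long minus short value was -0.86 in PBS and 0.00 in OVA lungs. Tsc22d3, which encodes the glucocorticoid-induced leucine zipper, shows this: it was listed at 177.1, 328.4, 158.0 and 210.7 FPKM in long OVA, at 313.8, 127.5 and 186.6 in long PBS, at 220.1, 229.7, 301.5 and 117.4 in short OVA and at 578.2, 663.6 and 596.4 in short PBS. Short PBS stood above the other 3 groups, which overlapped (PBS long minus short -1.64, adjusted p = 0.041). Klf15, another glucocorticoid-induced transcription factor, is not in that list and was chosen after its values were seen. It had 13.2 to 22.1 FPKM in long OVA, 16.4 to 23.1 in long PBS, 7.06 to 15.5 in short OVA lungs and 35.0 to 39.9 in short PBS (difference 1.53 ± 0.31, adjusted p = 0.0107). Klf9, another such factor, differed by 1.19 ± 0.25 (adjusted p = 0.0138), or 0.0623 without long PBS library 2. The difference of Tsc22d3 itself (1.67 ± 0.43, adjusted p = 0.0475) was lost in 10 of the 14 leave-outs (highest 0.174, without long PBS library 2) and that of Hif3a (2.63 ± 0.61, 0.0295) in 10 (highest 0.106, without the same library).

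Fkbp5, a chaperone of the glucocorticoid receptor and a target of it, was higher in both short groups. It was listed at 43.6, 46.9, 55.6 and 45.0 FPKM in long OVA, at 40.2, 34.3 and 38.1 in long PBS, at 89.5, 65.3, 89.4 and 64.3 in short OVA and at 89.2, 134.4 and 101.8 in short PBS. Its PBS lungs differed by -1.5 (adjusted p = 0.00536), and its difference between OVA effects was not called (0.83 ± 0.28, adjusted p = 0.155).

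All 16 heat shock chaperone genes had a positive difference, against 8504 of 15682 genes, and 3 were called (8 in the 14 libraries alone with the trend removed, all positive), with a median of 0.64. Hspa1b, an inducible HSP70 gene (chromosome 17, 34956436 to 34959238, minus strand), was listed at 36.4, 70.4, 70.2 and 36.0 FPKM in long OVA, at 11.7, 8.88 and 11.2 in long PBS, at 38.3, 75.2, 153.9 and 56.2 in short OVA and at 248.1, 67.7 and 131.3 in short PBS. Long PBS stood below the other groups, while short OVA and short PBS overlapped. Long minus short was -3.57 in PBS (adjusted p = 0.0151) and -0.48 in OVA lungs. Hspa1a, its near-identical neighbour, had the same order, and reads may be shared between them. The differences of Hspa1b (3.09 ± 0.77, adjusted p = 0.0419), Hspb1 (1.68 ± 0.41, 0.0362) and Hsp90ab1 (1.01 ± 0.25, 0.0442) were lost in 11, 10 and 11 of the 14 leave-outs. In order they had highest adjusted p of 0.132 and 0.123, both without short PBS library 1, and 0.138, without long PBS library 2.

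**Figure D3:**
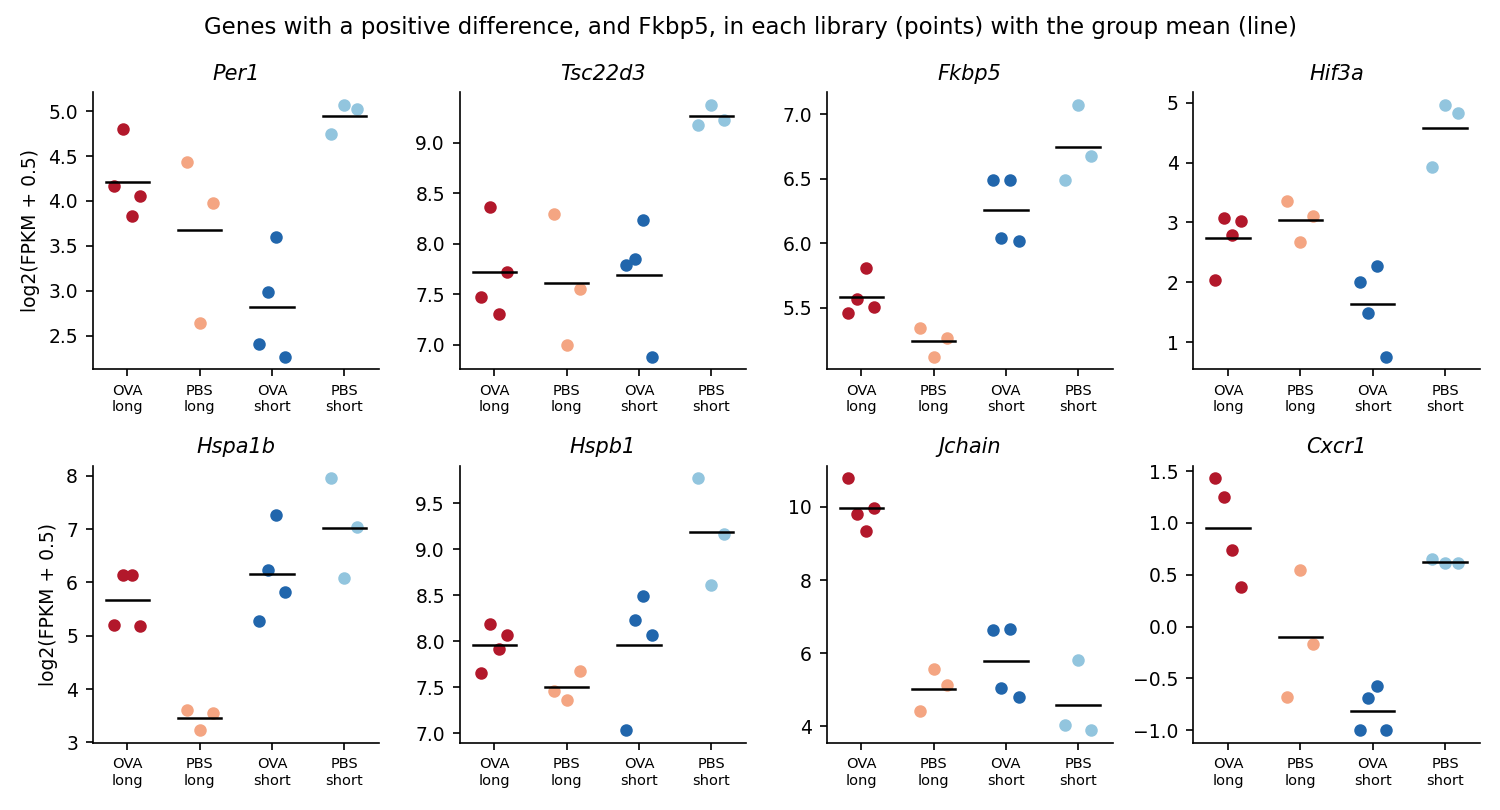
Each point is 1 library on a log2(FPKM + 0.5) axis that differs between panels, grouped as long OVA, long PBS, short OVA and short PBS, with the group mean as a line. Short PBS is highest for Tsc22d3 and Hif3a, long PBS is lowest for Hspa1b (8.88 to 11.7 FPKM), and long OVA alone is high for Jchain (652.8 to 1768 FPKM).

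The PBS lungs of the 2 protocols differed by call for 26 genes (0.166% of those tested), 3 higher and 23 lower in long PBS. Of these 26, 5 were in the glucocorticoid list of 20 and 4 in the heat shock list of 16. Among the 295 genes were 9 of the 26, against 1.88% of all genes. The PBS lungs are 1 side of the difference that chose the 295, so overlap is partly built in and the count is a description. The PBS difference was larger in size than the OVA difference in 24 of the 72 positive genes and in 5 of the 223 negative ones (Retnla, Cd200r1, Col3a1, Slc26a4 and Arsi). The median long minus short value of the 223 genes was -1.37 in OVA and 0.16 in PBS lungs, and that of the 72 genes 0.75 and -0.43.

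**Figure D4:**
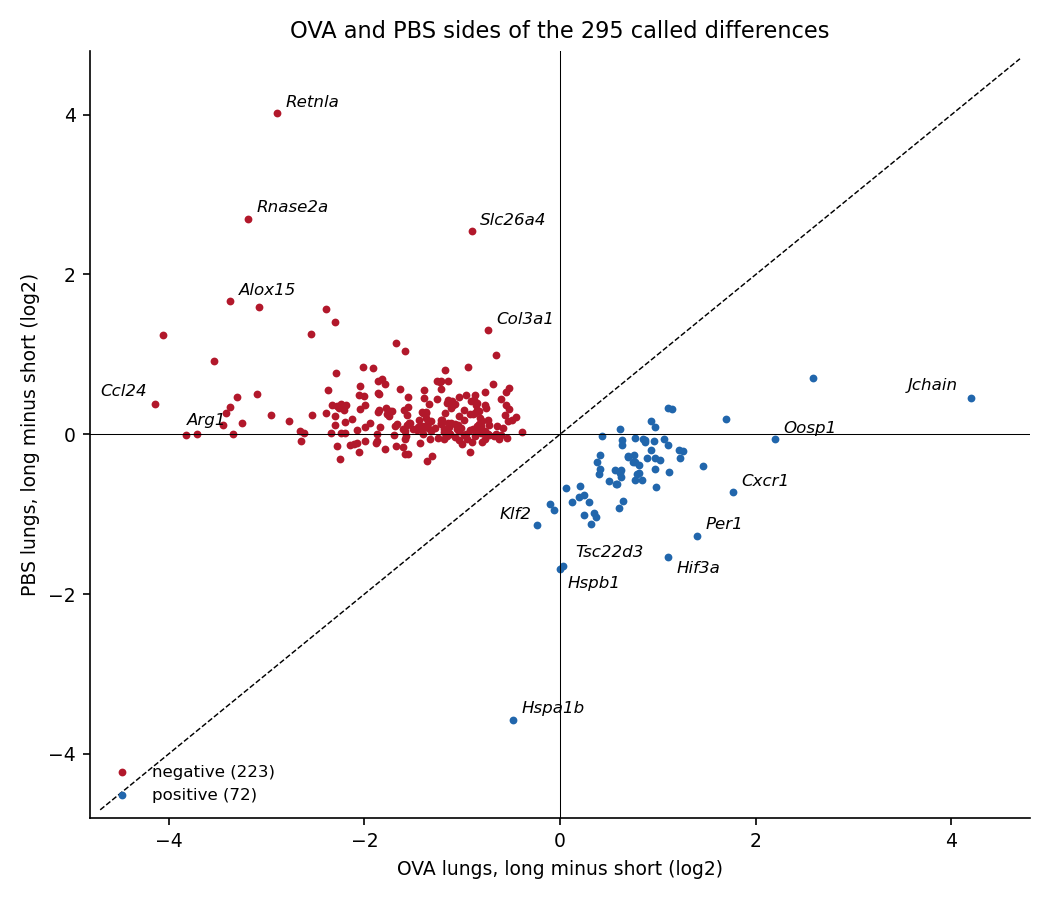
Long minus short in the PBS lungs (vertical axis) against long minus short in the OVA lungs (horizontal axis), in log2, for the 295 called genes; the dashed line marks equal values. The 223 negative genes spread along the horizontal axis (median -1.37 in OVA and 0.16 in PBS lungs), with Retnla at 4.02 on the PBS side, while the 72 positive genes fall on both axes, with Hspa1b at -3.57 on the PBS side and Jchain at 4.20 on the OVA side.

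In the alveolar type 2 list 2 of 13 genes were called positive and 1 negative (6 and 2 in the 14 libraries alone with the trend removed). Lpcat1, an enzyme of surfactant lipid synthesis, was listed at 127.8 to 143.5 FPKM in long OVA, 140.2 to 144.2 in long PBS, 56.4 to 63.1 in short OVA lungs and 104.2 to 121.8 in short PBS (difference 0.83 ± 0.17, adjusted p = 0.0109). Sftpb, a surfactant protein gene, was positive as well (0.81 ± 0.20, adjusted p = 0.0395). Sftpd, which encodes the collectin surfactant protein D, was negative (-0.89 ± 0.21, 0.031), with 310.2 to 350.2 FPKM in long OVA, 224.3 to 259.9 in long PBS, 604.0 to 703.1 in short OVA lungs and 243.0 to 301.5 in short PBS. Both of these calls were lost in most leave-outs, 12 and 10 of 14 (highest adjusted p = 0.116 for Sftpb, without long PBS library 1, and 0.116 for Sftpd, without short PBS library 3). Of 16 endothelial genes Esm1, an endothelial proteoglycan, alone was called (1.5 ± 0.33, adjusted p = 0.019; 0.0859 when long PBS library 2 was left out and 0.0684 for short PBS library 1). In the 14 libraries alone with the trend removed 4 were positive and 2 negative. None of the alveolar type 1 (12), club (13) or ciliated cell genes (15) was called with all libraries. In the 14 alone with the trend removed 1 alveolar type 1 and 3 club cell genes were called, all positive, and 0 ciliated cell genes.

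Tnfrsf4 (OX40) was 1 of 20 T cell genes called (4 in the 14 libraries alone with the trend removed, all negative). It was listed at 0.603 to 1.06 FPKM in long OVA, 0.555 to 0.763 in long PBS, 3.17 to 4.21 in short OVA lungs and 0.301 to 0.777 in short PBS (difference -1.98 ± 0.40, adjusted p = 0.011, and 0.138 with a pseudocount of 0.1). Of 12 natural killer and cytotoxic genes 2 were called (3 in the 14 alone with the trend removed), all negative. Gzmb, a granzyme of cytotoxic cells, differed by -2.14 ± 0.38 (adjusted p = 0.00483), with 4.11 to 7.50 FPKM in long OVA, 3.46 to 6.32 in long PBS, 23.1 to 33.45 in short OVA lungs and 4.797 to 6.02 in short PBS. Mcpt8, a basophil protease, was 1 of 14 mast cell and basophil genes called (-1.77 ± 0.34, adjusted p = 0.009; -2.91 and 0.122 with a pseudocount of 0.1), and the list had 1 positive and 1 negative in the 14 alone with the trend removed. Of 15 neutrophil genes, Retnlg (a resistin-like protein, -3.96 ± 0.55, adjusted p = 4.10e-04) and the chemokine receptor Cxcr1 (2.50 ± 0.50, 0.0105; 1.69 to 4.50 over the alternatives) were called in opposite directions, and the list had 1 of each in the 14 alone with the trend removed. None of 20 interferon-stimulated genes was called in either fit. Lymph node and thymus genes summed to 13.9 to 64.6 transcript FPKM in long OVA, 21.5 to 57.4 in long PBS, 54.1 to 118 in short OVA lungs and 39.5 to 426 in short PBS. Short PBS library 2 stood apart in them, with Glycam1, a gene of lymph node venules, at 60.5 FPKM in it and at 0 in the other 2. None of the 9 genes tested was called in either fit, and the part of lymphoid tissue in the lymphocyte and B cell results was not tested.

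**Figure D5:**
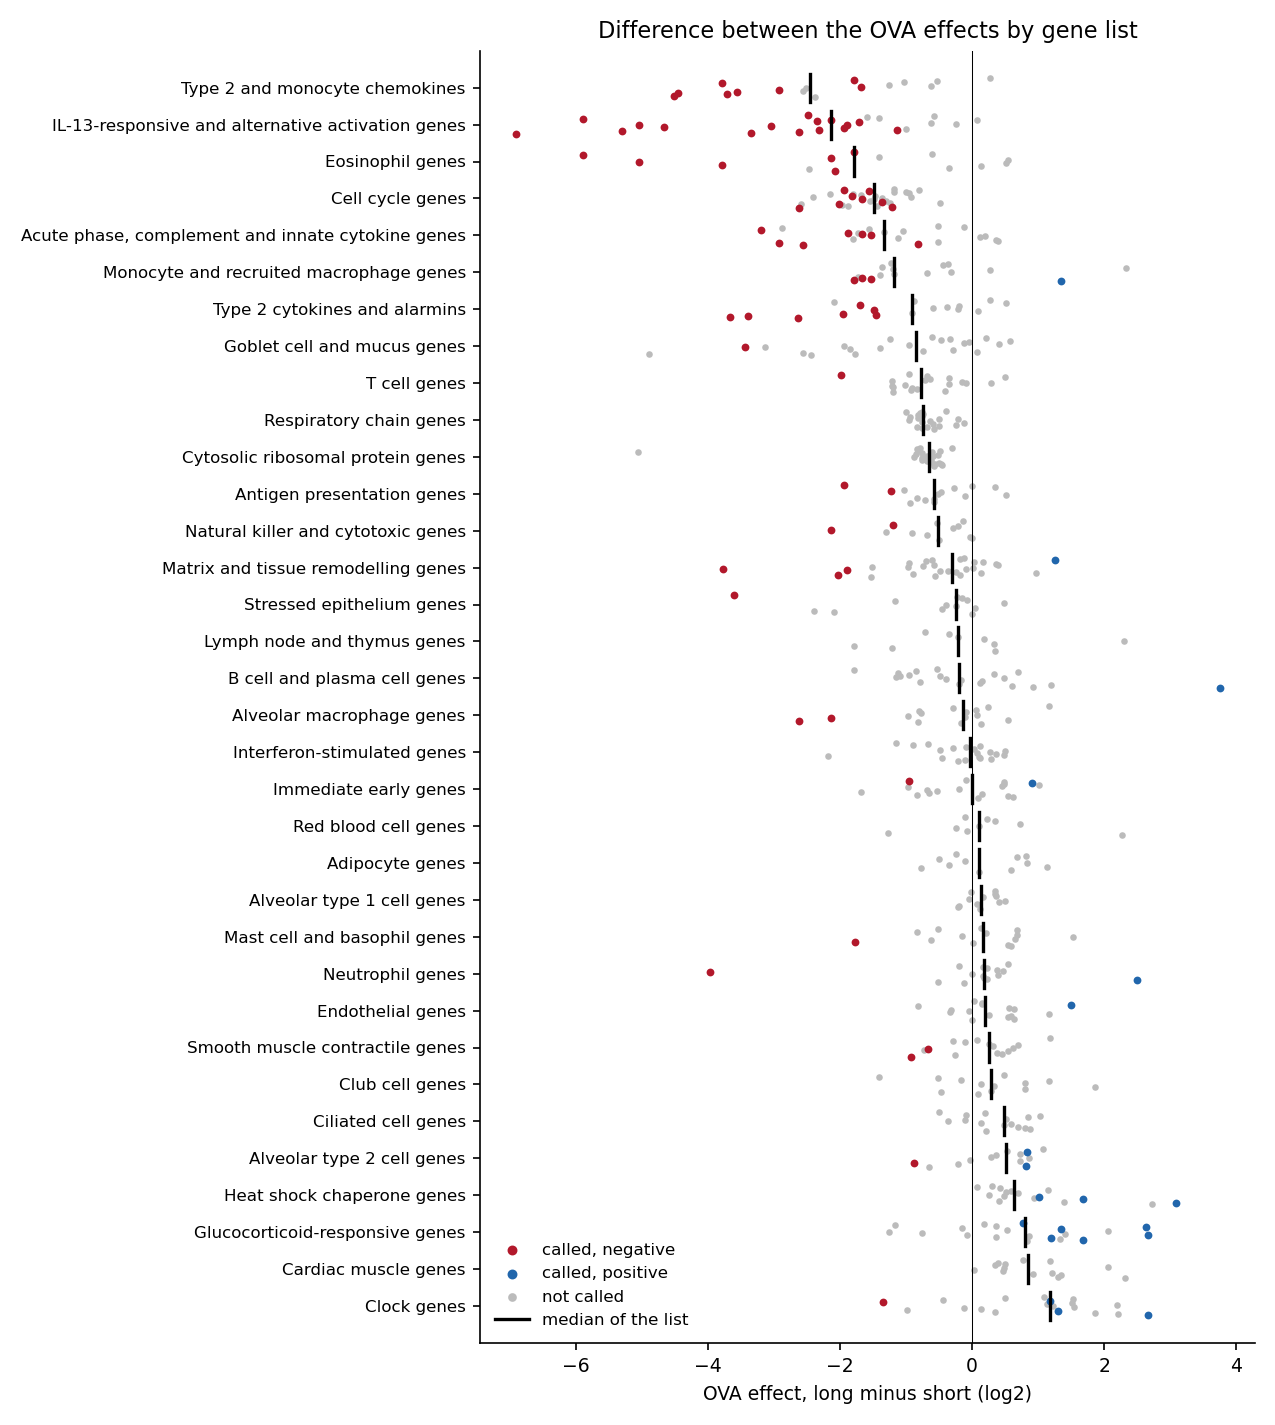
The difference between the OVA effects (log2, horizontal axis) for the tested genes of 34 lists, 1 point a gene, ordered by the list's median (vertical bar). Chemokine and receptor (median -2.45) and IL-13-responsive genes (-2.14) lie farthest to the left and clock genes (1.18) farthest to the right, while ribosomal (-0.65) and respiratory chain genes (-0.75) lie left of 0 without a call.

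Other effects were called in both protocols. Of 163 genes called in the same direction by OVA in both protocols, 35 also had a called difference, against 1.88% of the 15682 tested. In 74 of the 163 the 95% interval of the difference lay within -1.5 and 1.5 and the gene passed the naming rule. The OVA effects share libraries with the difference, so these counts are a description. Fabp1, a fatty acid-binding protein, was lower by 2.87 in the long and by 2.72 in the short protocol, with 0.724 to 1.19 FPKM in long OVA, 9.47 to 11.4 in long PBS, 0.883 to 1.96 in short OVA lungs and 8.22 to 13.2 in short PBS (difference -0.15 ± 0.59, 95% interval -1.39 to 1.09). Ptgdr, a prostaglandin D2 receptor, rose by 2.03 and 1.90 (difference 0.13 ± 0.30, interval -0.50 to 0.76) and the metalloproteinase gene Mmp19 by 1.96 and 1.64 (0.32 ± 0.34, interval -0.38 to 1.02). The mucosal mast cell proteases Mcpt1 and Mcpt2 rose in both protocols. Mcpt2 was listed at 31.1, 1.11, 6.92 and 14.9 FPKM in long OVA, at 0.147, 0 and 0 in long PBS, at 13.6, 4.64, 3.09 and 5.44 in short OVA and at 0, 0.054 and 0.156 in short PBS. Its difference was 0.54 ± 0.91 (adjusted p = 0.844), with an interval of -1.37 to 2.44.

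Measures of RNA composition moved with the comparison. Deviations from the mean over libraries correlated with transcript length at rho 0.262 to 0.361 in long OVA, 0.359 to 0.409 in long PBS, -0.473 to -0.392 in short OVA libraries, and -0.029 to 0.27 in those of short PBS (across genes, which are not independent replicates). All 24 cytosolic ribosomal protein genes and all 22 respiratory chain genes, which have short transcripts, had negative differences, with medians of -0.65 and -0.75 and no call; with the length trend removed the medians were -0.33 and -0.34. Of these, 22 and 19 were called in the 14 libraries alone, and 12 and 11 after the trend was removed. Cardiac muscle genes, markers of another tissue, summed to 47.6 to 189 FPKM in long OVA, 55.9 to 312 in long PBS, 72 to 355 in short OVA lungs and 153 to 683 in short PBS lungs, and all 14 had a positive difference without a call (1 in the 14 libraries alone with the trend removed). Red blood cell genes summed to 1710 to 2390 FPKM in long OVA, 2030 to 5400 in long PBS, 3400 to 5340 in short OVA lungs and 3860 to 11600 in short PBS. The part of these measures in the gene results was not tested.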

How the data were processed

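RNA came from lung (RNeasy with DNase I; libraries by TruSeq Stranded Total RNA, per the labels' protocols). The authors deposited FPKM values per gene and per transcript. The submitters' processing notes name Trim Galore, STAR, DESeq2 and mm10; which program gave FPKM is not stated in them. In the 5605 single-transcript genes above 1 FPKM in every library (of 13257 single-transcript genes), deposited gene FPKM was transcript FPKM times a constant of the gene, the same in all libraries. That constant was 1 (tolerance 1e-06) in 3.71% of the single-transcript genes with a value above 0. The gene lengths this implies matched the annotated length (within 0.5%) of the gene 1 or 2 rows further in 14.3% of 8270 genes, against 0.47% to 0.89% at each other single row distance tried; what made it was not tested. Printed levels are compared between libraries only. The filter, the pseudocount, limma's intensity trend and the naming minimum do use gene FPKM across genes and so treat genes unequally; sums of transcript FPKM were the alternative, and levels over several genes are such sums.

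Genes were fitted with limma 3.58.1 in R 4.3.3 (intensity trend, pseudocount 0.5) on all 22 libraries with 1 coefficient per group; the steps were tested on simulated data. Long OVA columns carry no replicate label and are named a to d. Nothing in the labels says how far libraries of a group were prepared apart, so p-values measure the spread between these libraries, which may be technical. The alternatives changed the pseudocount (0.1 or 1), the filter (FPKM of 1, or no filter), the scaling (median of ratios, quantile), the variance model (array weights, robust eBayes), the input (sums over transcripts), the length trend (removed per library by lowess, span 0.3), the libraries (the 14 alone, also with the trend removed) or left out 1 of the 14.

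Genes were named by a rule: the 12 most negative and 12 most positive called genes with a mean of at least 1 FPKM in a group, up to 4 genes with the smallest p of each of 34 lists, 22 key genes, and the 8 largest effects held in both protocols; not all are printed. Flvcr2, Klf15, Txnip, Fkbp5, Il10, Il1rl1, Il21, Itih4 and Cybb, and other genes outside the rule, were chosen after their values were seen. Ccn2 was chosen in this way too, but also falls under the rule through its list. The result for 1 gene is not reported here. Comparison, lists and rule were chosen with earlier results of these data known. Positions follow GENCODE, build mm10.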

Additional observations from a re-analysis of the deposited data

Results flagged for a closer look

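Some single libraries stood far from the rest of their group by Dixon's test, in 9 of 80 groups tested. For independent groups chance alone flags about 1 in 20. These groups are genes in the same OVA libraries, partly chosen by their values, so the count cannot be set against that share. Long OVA library b was low for 3 genes. Chil4 was at 3.74 FPKM in it, against 42.2 to 46.7 in the other 3, Il13 at 0.051, against 0.468 to 0.537, and Clca1 at 48.9, against 565.3 to 615.0. Long OVA library a was low for Galnt15, at 0.835 FPKM against 2.11 to 2.33, and high for Il33, at 308.1 against 238.2 to 245.6. Short OVA library 2 was low for Chil4, at 119.8 FPKM against 554.3 to 712.2. Short OVA library 3 was low for Ccl7, at 118.1 FPKM against 154.8 to 162.3, and for Epx, at 0.943 against 2.14 to 2.46. Oosp1 was listed at 0.488 FPKM in short OVA library 1 and at 0 in the other 3, and with these equal any other value would be flagged.

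The OVA effect differed between the long and the short protocol for 295 genes by the test of the difference itself.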

How the results depend on the processing

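The number of genes called, 295, was 193 with a pseudocount of 0.1, 4893 with array weights, 4513 in the 14 OVA and PBS libraries alone, 2749 in those with the length trend removed, and 132 to 311 when 1 library was left out (lowest for long PBS library 2, highest for short OVA library 3). The causes were not tested. Under the other 8 alternatives it lay between 262 and 376. Of 80 called genes of the naming rule and the later choices, 49 kept the call in every leave-out, 51 under all other alternatives, and none changed direction. Genes that changed sign were not called with all libraries. Fabp1 went to 0.25 with the length trend removed and 0.27 with this in the 14 libraries alone, and ran from -0.28 to 0.045 (0.018 in 1) in leave-outs. Egln3 went to 0.095 with array weights and ran from -0.207 to 0.176 in leave-outs. Tbx20 went to -0.082 and -0.085 with the trend removed, in all and in 14 libraries. In leave-outs Mcpt1 ran from -0.015 to 1.59, Mcpt2 from -0.082 to 1.35, Ptgdr from -0.15 to 0.29 and Glycam1 from -0.009 to 3.46.

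No paired analysis was possible because the long OVA columns carry no replicate number of the labels. Depth limits genes near 0, since 1 FPKM by transcript is 17.2 to 25.2 fragments per kilobase. The printed gene FPKM differ from transcript FPKM by the constant of each gene.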
